A study of Mus musculus with 9 samples.

Results

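The 71 genes described here are the heat shock proteins and DNAJ cochaperones of mouse testis, chosen as the rows whose gene symbol begins with Hsp or Dnaj followed by a family letter or number, 71 of the 38685 rows of the table. They comprise 13 HSP70 genes, 3 HSP90 genes, 2 genes of the mitochondrial chaperonin, 8 small HSP genes, 2 genes of cochaperones that bind heat shock proteins, and 4 DNAJA, 12 DNAJB and 27 DNAJC genes. RNA of whole testis, freed of the tunica albuginea, came from C57BL/6 males that were wildtype (Prm2+/+), heterozygous (Prm2+/-) or deficient (Prm2-/-) for Prm2, the gene of a protamine that packs sperm DNA. Each genotype had 3 libraries, and the ages of the males are not given in the sources used here. The Prm2 mutation was made by gene editing in oocytes, so it is carried by all cells of the animal, and which of the established mutant lines the males came from is not given in the sources used here. The libraries were made with QuantSeq, which reads polyadenylated transcripts near their 3′ end, and the values are normalized counts, not scaled to gene length. They are compared between libraries within a gene, or as sums over listed genes, in which genes with high counts weigh most. Where genes are ranked by level, the rank is by count.

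HSP70 chaperones hold unfolded stretches of protein in a cycle of ATP hydrolysis, DNAJ proteins start that cycle by delivering the client and stimulating the ATPase, and exchange factors end it. HSP90 takes over clients such as kinases and receptors with its own cochaperones, small HSPs hold unfolded proteins without ATP, and the chaperonins enclose them. Many of these genes are induced by heat shock factors, while male germ cells express a set of constitutive relatives of their own, among them Hspa2 in spermatocytes and Hspa1l in spermatids.

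The recovered reads, which are whole counts obtained by undoing the size factor of each library, summed to between 3629929 and 4490411. The 71 genes took between 1.38% and 1.62% of the normalized counts. Prm2 itself had 29757, 29716 and 39665 normalized counts in Prm2+/+ and 34660, 36004 and 42766 in Prm2-/- (log2 fold change 0.20, SE 0.13, adjusted p = 0.746 in limma). The transcript count thus does not check the genotype labels, and genotypes are those of the libraries as labelled. The study calls the 3 libraries of a genotype biological replicates, while the labels only number them, so the p-values measure the spread between these libraries. Replicate 3 of Prm2+/+ stood apart, since it was the highest of the 9 libraries in 23.9% and the lowest in 25.7% of the 14893 tested genes. Late germ cell markers were present in every library, where the elongating spermatid list of Prm1, Tnp1, Tnp2 and Odf1 summed to between 189882 and 214017. The epididymis markers Lcn5, Adam28 and Lcn8 were at 0 throughout, and Crisp1 had 3.65 in replicate 2 of Prm2+/- and 0 elsewhere. The summed levels of the spermatocyte markers (4790 to 6027) and of the round spermatid markers (3241 to 3674) varied less than that of the Sertoli list (409 to 1078), in which Amhr2 was at 539 to 692 in 3 libraries and 6.43 to 12.8 in the other 6, and Wt1 at 18.8 to 28.1 in 4 and 115 to 148 in the other 5, while Sox9 spanned 159 to 243 and Rhox5 153 to 214. The spermatogonia list, with far fewer counts, summed to between 82.7 and 175, and its gene Stra8 was at 25.7 to 138. Izumo1 and Insl3 had no row. In these bulk samples, fewer cells of a type and less RNA per cell cannot be told apart.

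No member (0 of 71) was called differentially expressed in any of the 3 comparisons with limma, which needed an adjusted p under 0.05 and a log2 fold change beyond 0.5, and 68 members had enough reads to be tested. Hspb2, Hspb3 and Dnajc22 did not, with at most 4.42, 1.01 and 7.39 normalized counts in any library. Of all tested genes, 0.181% were called between Prm2-/- and Prm2+/+, 0.0806% between Prm2+/- and Prm2+/+, and 0.175% between Prm2-/- and Prm2+/-. By direction, these were 0.154% higher and 0.0269% lower in the first, 0.0604% and 0.0201% in the second, and 0.148% and 0.0269% in the third. At an unadjusted p under 0.05 in limma, 5 members passed in the first of these comparisons (7.35% of the members against 7.33% of all genes), 4 in the second (5.88% against 4.24%) and 1 in the third (1.47% against 5.44%). With edgeR 0 members were called in each comparison, whereas DESeq2 called 1, 1 and 0. The median log2 fold change of the members was -0.05, -0.03 and -0.02 in the same order, beside 0.02, 0.01 and -0.01 over all genes. The comparisons share libraries and are given side by side only.

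The width of the intervals set what could be seen. The median member had a 95% interval reaching 0.418 to either side on the log2 scale. For 24 of the 68 members the whole interval between Prm2-/- and Prm2+/+ lay within 0.5 of no difference, and for the others the interval reached past that size. The narrowest span of levels belonged to Dnajb6, a DNAJB that holds aggregation-prone proteins, with 2824 to 3104 normalized counts over all 9 libraries (coefficient of variation 3.36%). Hspa4, an exchange factor of the HSP110 type, spanned 1148 to 1349, and Dnajc27, a small GTPase with a J domain, 419 to 490. The median coefficient of variation was 16.7% over the tested members and 21.1% over all tested genes.

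**Figure D1:**
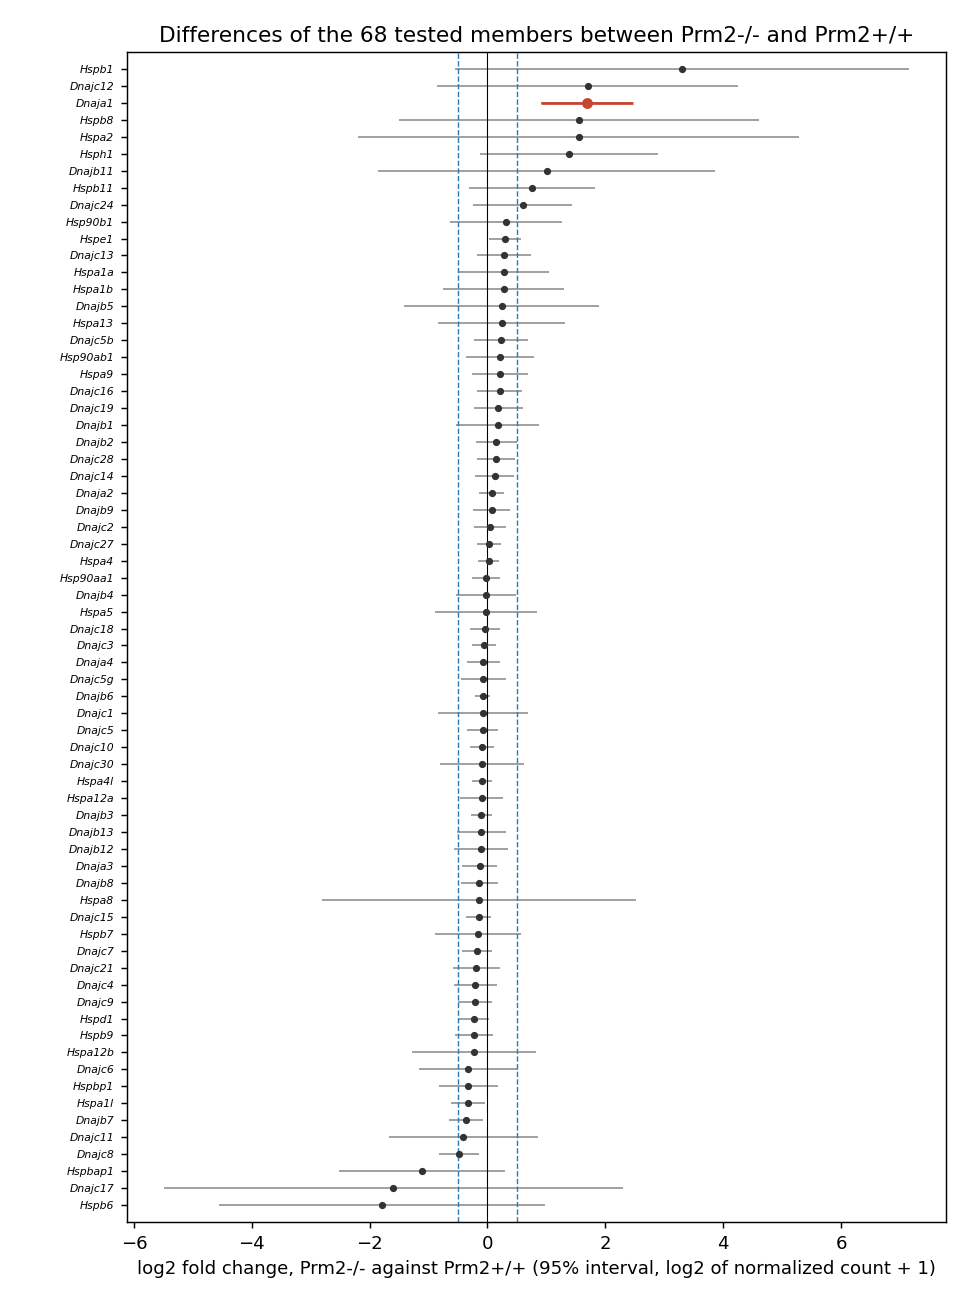
Log2 fold changes of the 68 tested members between Prm2-/- and Prm2+/+ (points) with 95% intervals from limma (lines), 1 gene per row, and dashed lines at 0.5 to either side. Dnaja1 is drawn in red at 1.69, and the widest interval, from -5.49 to 2.29, is that of Dnajc17, which was at 0 in 2 libraries.

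Dnaja1 was the member with the lowest p. It encodes a cytosolic DNAJ partner of HSP70, and mice that lack it are known for defects of spermatogenesis through Sertoli cells. The gene lies on chr4:40722150-40737149 of GRCm38 on the plus strand. It had 122, 124 and 327 normalized counts in Prm2+/+, 542, 524 and 518 in Prm2+/-, and 547, 565 and 545 in Prm2-/-. All Prm2+/+ libraries lay below the other 6, and replicate 3 of Prm2+/+ lay between its own group and the rest. The log2 fold change was 1.69 between Prm2-/- and Prm2+/+ (SE 0.34, unadjusted p = 0.0011, adjusted p = 0.254 in limma). Between Prm2+/- and Prm2+/+ it was 1.62 (SE 0.34, unadjusted p = 0.0014, adjusted p = 0.599 in limma). Neither passed the adjusted threshold in limma or edgeR (adjusted p = 0.366 and 0.847), and both did in DESeq2 (adjusted p = 0.00784 and 0.0258), where 0.88% and 0.396% of all genes were called. Without replicate 3 of Prm2+/+, limma gave 2.16 (adjusted p = 4.3e-05) and 2.09 (adjusted p = 3.99e-05), with 0.3% and 0.229% of all genes called. The call therefore depended on the tool and on 1 library. Over all alternatives the adjusted p lay between 4.3e-05 and 0.588 for Prm2-/- and between 3.99e-05 and 0.897 for Prm2+/-.

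The 3′ end of Dnaja1 overlaps that of Smu1 on the other strand, and whether the authors counted by strand is not given in the sources used here. Smu1 had 239 to 353 normalized counts in the 9 libraries, with 335 and 275 in the libraries where Dnaja1 was lowest, and did not mirror it. In the last 300 bases of the annotated Dnaja1 transcripts, 52.3% of all words of 50 bases, the length of a read, occurred also in Gm15542, Gm7816 or Gm6335. Reads of Dnaja1 could thus be split among these genes, and their part in the difference was not tested. The promoter window of RefSeq (250 bases before to 50 after the start, GRCm38.p6) at the first of 3 listed starts is printed because this is the member with the lowest p. Capitals mark the 2-unit heat shock element, GAANNTTC or TTCNNGAA, the letters bound by heat shock factors when repeated. The window, chr4:40722218-40722517 on the plus strand, held 1 match.
Dnaja1: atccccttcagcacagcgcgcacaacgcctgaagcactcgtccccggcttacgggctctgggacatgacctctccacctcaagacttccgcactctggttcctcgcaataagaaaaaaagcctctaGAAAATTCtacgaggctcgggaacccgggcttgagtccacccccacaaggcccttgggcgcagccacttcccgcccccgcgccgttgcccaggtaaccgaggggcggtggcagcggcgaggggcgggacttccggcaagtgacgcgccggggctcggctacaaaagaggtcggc
The other 2 windows of Dnaja1 held no match.

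The other members with an unadjusted p under 0.05 between Prm2-/- and Prm2+/+ had smaller differences. Dnajb7, a DNAJ gene transcribed in testis, had 847, 872 and 1167 normalized counts in Prm2+/+, 852, 828 and 777 in Prm2+/-, and 728, 759 and 731 in Prm2-/-. Its Prm2-/- libraries lay below all others, with a log2 fold change of -0.36 against Prm2+/+ (SE 0.12, unadjusted p = 0.019, adjusted p = 0.598 in limma). Without replicate 3 of Prm2+/+ the difference was -0.22 (adjusted p = 0.471 in limma). Hspa1l, the spermatid HSP70, had 1681, 1590 and 2086 in Prm2+/+, 1382, 1590 and 1476 in Prm2+/-, and 1263, 1412 and 1571 in Prm2-/-. Its Prm2-/- range ended just below that of Prm2+/+, and the log2 fold change was -0.33 (SE 0.13, unadjusted p = 0.031, adjusted p = 0.641 in limma), or -0.21 without replicate 3 of Prm2+/+. Dnajc8, which takes part in pre-mRNA splicing, had 281, 284 and 352 in Prm2+/+, 272, 248 and 209 in Prm2+/-, and 212, 200 and 246 in Prm2-/-. Both other genotypes lay below Prm2+/+, with a log2 fold change of -0.48 for Prm2-/- (SE 0.15, unadjusted p = 0.012, adjusted p = 0.545 in limma).

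The 2 genes of the mitochondrial chaperonin lie head to head on chromosome 1 and had differences of opposite sign. Hspe1, the lid of the chamber, had 262, 244 and 233 normalized counts in Prm2+/+, 308, 244 and 267 in Prm2+/-, and 329, 303 and 280 in Prm2-/- (log2 fold change 0.30 for Prm2-/- against Prm2+/+, SE 0.12, unadjusted p = 0.035, adjusted p = 0.649 in limma). Hspd1, the chamber itself, had 166, 144 and 171 in Prm2+/+, 170, 147 and 161 in Prm2+/-, and 138, 141 and 131 in Prm2-/- (log2 fold change -0.23, SE 0.11, unadjusted p = 0.078, adjusted p = 0.716 in limma). In neither gene did the Prm2-/- libraries overlap those of Prm2+/+, and neither difference passed the adjusted threshold. Of the words of 50 bases at their 3′ ends, 43.8% for Hspe1 and 39.2% for Hspd1 occur also in other genes, among them pseudogenes of their own. The window of the inner Hspd1 start, at chr1:55087883-55088182 on the minus strand, is printed because it overlaps that of Hspe1, with the 2-unit matches in capitals forming 1 run.
Hspd1: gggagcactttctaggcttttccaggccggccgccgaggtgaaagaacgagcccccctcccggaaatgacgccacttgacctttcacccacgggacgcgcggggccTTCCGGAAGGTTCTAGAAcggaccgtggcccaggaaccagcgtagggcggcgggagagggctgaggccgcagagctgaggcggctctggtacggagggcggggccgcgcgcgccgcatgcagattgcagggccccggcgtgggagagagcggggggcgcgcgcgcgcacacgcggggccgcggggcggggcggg
That run of 18 bases, at chr1:55088059-55088076, lies in the window of Hspe1 as well, and it holds the 3-unit element, which is the 2-unit element continued, after 2 more bases of any kind, by a further GAA or TTC in alternation.

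Between Prm2+/- and Prm2+/+, 3 members besides Dnaja1 had an unadjusted p under 0.05 in limma. Dnajc19, a subunit of the mitochondrial import motor, had 237, 167 and 165 normalized counts in Prm2+/+, 302, 278 and 284 in Prm2+/-, and 244, 225 and 173 in Prm2-/-. Its Prm2+/- libraries were above all 6 others, by a log2 fold change of 0.62 over Prm2+/+ (SE 0.18, unadjusted p = 0.0088, adjusted p = 0.842 in limma). Against them Prm2-/- differed by -0.44 (unadjusted p = 0.041, adjusted p = 0.891 in limma). Dnajc21, a factor of ribosome assembly, had 641, 743 and 675 in Prm2+/+, 502, 564 and 384 in Prm2+/-, and 576, 523 and 722 in Prm2-/-. All Prm2+/- libraries lay below those of Prm2+/+, with a log2 fold change of -0.52 (SE 0.17, unadjusted p = 0.016, adjusted p = 0.842 in limma). Dnajc12, a partner of HSP70 for aromatic amino acid hydroxylases, was sparse, with 0, 21.4 and 0 in Prm2+/+, 21.8, 19.2 and 15.9 in Prm2+/-, and 7.24, 10.1 and 7.39 in Prm2-/-. Replicate 2 of Prm2+/+ was close to the highest of Prm2+/-, while the other 2 libraries of Prm2+/+ had a count of 0, which allows up to 2.85 and 3.31 normalized counts. Its adjusted p in limma was 0.842 for Prm2+/- and 0.75 for Prm2-/- against Prm2+/+, and 0.00965 and 0.0274 without replicate 2 of Prm2+/+, where 0.287% and 0.418% of all genes were called.

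Counts of members without overlap between 2 genotypes were near the share of all genes in most directions. Between Prm2-/- and Prm2+/+, 3 members were higher in all Prm2-/- libraries, namely Dnaja1, Dnajb11 and Hspe1 (4.41% against 6.92% of all genes). Lower were 9 (13.2% against 7.1%), namely Dnajb6, Dnajb7, Dnajc7, Dnajc8, Dnajc15, Hspa1l, Hspb9, Hspbp1 and Hspd1. Between Prm2+/- and Prm2+/+, 2 members were higher (Dnaja1 and Dnajc19, against 4.88% of all genes) and 4 lower (Dnajb2, Dnajc8, Dnajc21 and Hspa12a, against 4.56%). Between Prm2-/- and Prm2+/-, 4 were higher (Dnaja1, Dnajb2, Dnajc13 and Hspa2, against 7.47%) and 5 lower (Dnajb7, Dnajc9, Dnajc12, Dnajc19 and Hspd1, against 7.25%).

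The widest spans in the family cut across genotypes. In 5 of the 68 tested members the 9 values fell into 2 levels, defined as a gap of at least 2 between neighbouring values of log2(normalized count + 1) and a highest value of at least 50. This was 7.35% of the members, beside 7.28% (1084) of all tested genes. The 5 genes were Hspa2, Hspb1, Hspb6, Hspa8 and Dnajb11.

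Hspa2, the HSP70 of spermatocytes that is needed for male meiosis, lies on chr12:76404176-76406938 on the plus strand. It had 3730, 138 and 3256 normalized counts in Prm2+/+, 127, 78.6 and 3210 in Prm2+/-, and 3601, 3600 and 3280 in Prm2-/-. The 3 low libraries, replicate 2 of Prm2+/+ and replicates 1 and 2 of Prm2+/-, had a mean of 114 and the 6 high ones of 3446, a ratio of 30.1, and no library lay between 138 and 3210. The log2 fold change between Prm2-/- and Prm2+/- was 3.45 (SE 1.62, adjusted p = 0.945 in limma). The highest Prm2+/- library lay just under the lowest of Prm2-/-. The summed spermatocyte list, Hspa2 not among its genes, had 6027, 5451 and 5897 in the low libraries and 4790 to 5556 in the other 6, so the ranges overlapped. Of its genes, Sycp1, of the synaptonemal complex, had 2006, 1734 and 1760 in the low libraries and 1566 to 1662 in the others, while Sycp3, of the same complex, had 1083, 624 and 926 against 538 to 972. Piwil1, of the piRNA pathway, had 2792, 2966 and 3075 against 2654 to 3034, and Hormad1, of the meiotic chromosome axis, 146, 128 and 136 against 32 to 140. The part of cell composition in the step was not tested. Of the genes with 2 levels, 1 other had the same split of libraries and 0 the opposite one, and none of the 6 tested genes within 150 kb mirrored it (0 of 6). The promoter window, chr12:76404120-76404419 on the plus strand, is printed because this gene had the largest step in normalized counts of the family, and it held no match to the 2-unit heat shock element.
Hspa2: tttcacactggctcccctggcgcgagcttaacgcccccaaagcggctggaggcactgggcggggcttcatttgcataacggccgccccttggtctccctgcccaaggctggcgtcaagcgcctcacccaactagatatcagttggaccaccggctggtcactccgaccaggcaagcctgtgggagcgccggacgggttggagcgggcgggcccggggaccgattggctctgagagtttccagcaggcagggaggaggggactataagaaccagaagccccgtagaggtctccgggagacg

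Hspb1, the small HSP also known as HSP25, lies on chr5:135887919-135889563 on the plus strand and had 4.75, 209 and 6.63 normalized counts in Prm2+/+, 177, 5.48 and 222 in Prm2+/-, and 209, 216 and 191 in Prm2-/-. Low and high libraries occurred in both Prm2+/+ and Prm2+/-, with a ratio of 36.3 between the means of the high and the low ones. The log2 fold change between Prm2-/- and Prm2+/+ was 3.30 (SE 1.67, adjusted p = 0.719 in limma), the largest of the family, with a 95% interval from -0.55 to 7.14. Dtx2, a ubiquitin ligase gene 105237 bases away, showed the opposite split, with 137, 183 and 148 in the 3 libraries where Hspb1 was low and 0.989 to 6.43 in the others. Of the genes with 2 levels, 3 others had the same split as Hspb1 and Dtx2 alone (1) had the opposite one, and the cause was not tested. At the 3′ end of Hspb1, 19% of the words of 50 bases occur also in Hsp25-ps1. The promoter window, chr5:135887669-135887968 on the plus strand, is printed as that of an inducible gene which held 2 matches to the 2-unit element, in capitals.
Hspb1: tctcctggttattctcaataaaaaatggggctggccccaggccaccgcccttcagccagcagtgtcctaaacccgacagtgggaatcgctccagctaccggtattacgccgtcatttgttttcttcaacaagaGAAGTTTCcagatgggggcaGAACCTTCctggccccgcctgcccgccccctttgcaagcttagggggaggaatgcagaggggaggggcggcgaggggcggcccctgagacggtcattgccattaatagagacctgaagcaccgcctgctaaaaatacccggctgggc

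The other 3 genes with 2 levels were low in 1 library each. Hspa8, the constitutive HSP70 of most cells, had 281, 295 and 392 normalized counts in Prm2+/+, 295, 271 and 8.84 in Prm2+/-, and 279, 280 and 306 in Prm2-/-. Its replicate 3 of Prm2+/- alone was low, and 73.7% of the words at its 3′ end occur also in 11 other genes. Dnajb11, a cochaperone of the endoplasmic reticulum, was low in the same library, with 112, 176 and 60.8 in Prm2+/+, 202, 95 and 3.53 in Prm2+/-, and 212, 178 and 263 in Prm2-/-. For each of the pair, 38 other genes with 2 levels had this split and 6 the opposite one. Hspb6, the small HSP known as HSP20, had 137, 151 and 202 in Prm2+/+, 140, 166 and 137 in Prm2+/-, and 3.62, 162 and 136 in Prm2-/-. Replicate 1 of Prm2-/- alone set its log2 fold change of -1.79 against Prm2+/+ (SE 1.20, adjusted p = 0.75 in limma), which was -0.11 without that library (adjusted p = 0.935 in limma). Dnajc17 was at 0 in replicate 1 of Prm2+/- and replicate 2 of Prm2-/-, and between 19.4 and 40.9 elsewhere.

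**Figure D2:**
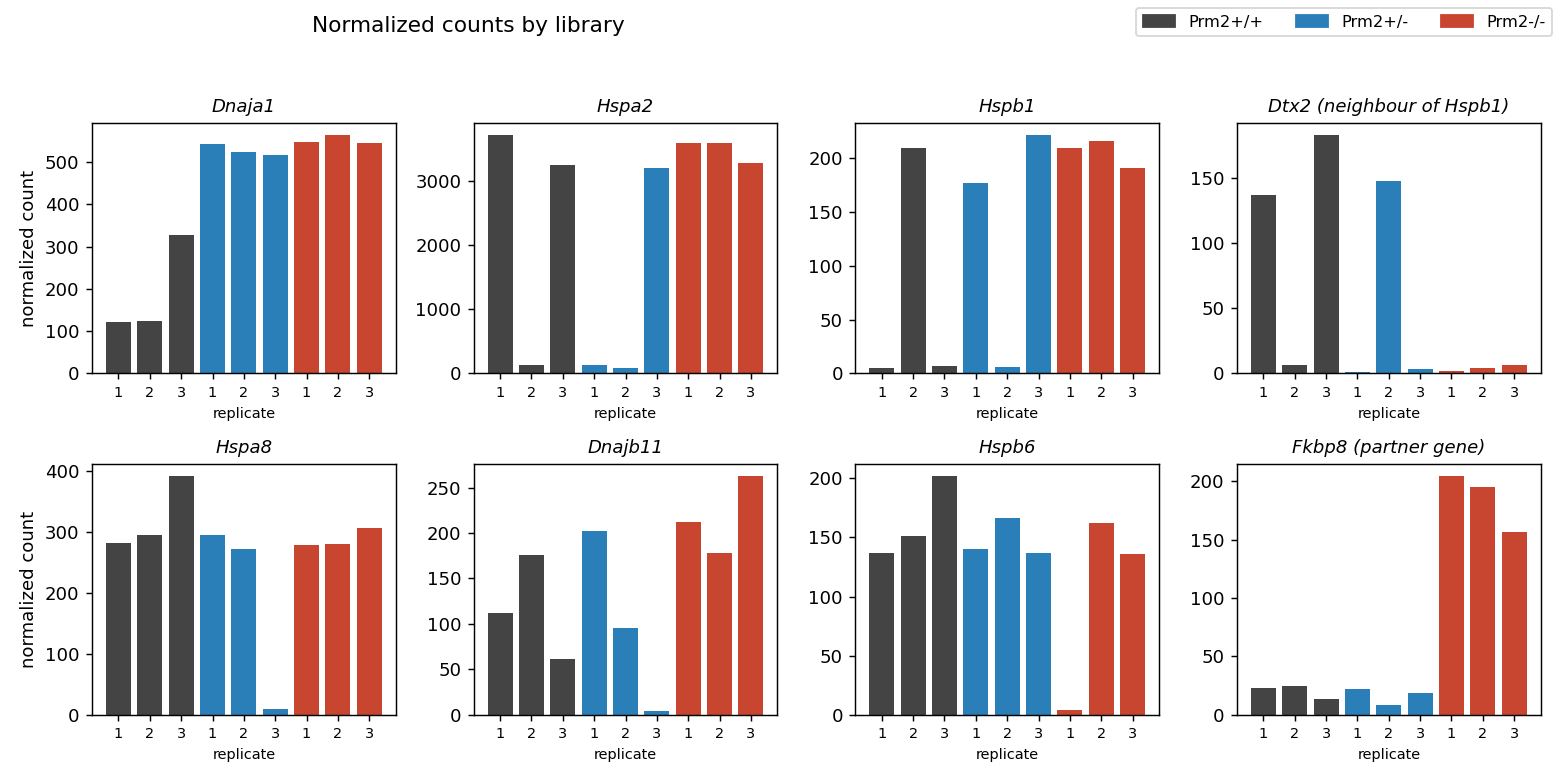
Normalized counts of 6 members, of Dtx2 and of Fkbp8 in each library (bars from 0, coloured by genotype, replicate number below). Hspa2 and Hspb1 are high or low in whole libraries of Prm2+/+ and Prm2+/-, Dtx2 has the opposite pattern to Hspb1, and Fkbp8 is at 156 to 205 in Prm2-/- alone.

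Hsph1, an HSP110 exchange factor that is strongly heat inducible, was low without meeting that gap, with 183, 40.7 and 24.3 normalized counts in Prm2+/+, 86, 164 and 162 in Prm2+/-, and 162, 140 and 150 in Prm2-/-. Replicates 2 and 3 of Prm2+/+ lay below all other libraries and replicate 1 above them (log2 fold change 1.39 for Prm2-/-, SE 0.66, adjusted p = 0.712 in limma). Its window, chr5:149636287-149636586 on the minus strand, held the 3-unit heat shock element and is printed for comparison with those above.
Hsph1: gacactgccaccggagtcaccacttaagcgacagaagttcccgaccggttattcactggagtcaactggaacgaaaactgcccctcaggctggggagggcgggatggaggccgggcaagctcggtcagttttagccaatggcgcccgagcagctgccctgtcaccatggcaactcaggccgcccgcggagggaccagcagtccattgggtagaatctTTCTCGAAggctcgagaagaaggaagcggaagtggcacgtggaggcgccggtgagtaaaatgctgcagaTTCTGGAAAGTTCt
Of the 71 members, 57 had a promoter in the RefSeq table. The 2-unit element, searched on both strands, stood in the windows of 16 of the 57 (28.1%) and of 17% of all 27025 genes in the table. The 3-unit element, which contains it, stood in 4 (7.02%) and in 0.662% of all genes. Hspd1 and Hspe1 share 1 run, which is counted for both. The 4 genes, Dnajb6, Hspd1, Hspe1 and Hsph1, had log2 fold changes of -0.08, -0.23, 0.30 and 1.39 between Prm2-/- and Prm2+/+. These are matches of letters and say nothing of binding.

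The stress-inducible HSP70 genes had few counts in all genotypes. Hspa1a had 16.2, 11.8 and 11 normalized counts in Prm2+/+, 19.8, 13.7 and 17.7 in Prm2+/-, and 19.9, 20.3 and 9.5 in Prm2-/-. The genotypes overlapped, with a log2 fold change of 0.27 between Prm2-/- and Prm2+/+ (SE 0.34, adjusted p = 0.83 in limma). Hspa1b, its neighbour with a near-identical coding sequence, ranged from 4.29 to 12.9 over all libraries. The start of Hspa1l lies 547 bases from that of Hspa1a, in the opposite direction. Dnajb1, the inducible DNAJB, had 562, 573 and 751 in Prm2+/+, 561, 570 and 637 in Prm2+/-, and 1214, 562 and 509 in Prm2-/-. Replicate 1 of Prm2-/- was high, and the other 2 libraries of that genotype were within the range of Prm2+/- or below it.

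In the HSP90 group the genotypes also overlapped. Hsp90aa1, the form that is abundant in germ cells, had 10624, 10415 and 13300 normalized counts in Prm2+/+, 12200, 11002 and 10592 in Prm2+/-, and 11109, 10662 and 11856 in Prm2-/- (log2 fold change -0.02 for Prm2-/- against Prm2+/+, 95% interval -0.26 to 0.22). Replicate 3 of Prm2+/+ was the highest, and 37.6% of the words at its 3′ end occur in Gm12346 or Gm5844 too. Hsp90ab1, the form of most tissues, had 1224, 1464 and 1901 in Prm2+/+, 1570, 1683 and 1333 in Prm2+/-, and 1732, 1269 and 2413 in Prm2-/-. Hsp90b1, the HSP90 of the endoplasmic reticulum, had 769, 871 and 915 in Prm2+/+, 793, 1819 and 1371 in Prm2+/-, and 749, 1976 and 794 in Prm2-/-. High values of Hsp90b1 thus occurred in 3 libraries of 2 genotypes.

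Among the 13 members with known testis or sperm roles, 8 had their highest value in replicate 3 of Prm2+/+, including Hspb9 and Dnajb8. Of all tested genes, 23.9% were highest in that library. Hspb9, a small HSP of testis, had 2888, 2873 and 3996 normalized counts in Prm2+/+, 2799, 2754 and 3402 in Prm2+/-, and 2710, 2715 and 2808 in Prm2-/-. Dnajb8, a DNAJ of spermatids, had 2220, 2089 and 3075 in Prm2+/+, 2214, 2177 and 2336 in Prm2+/-, and 2211, 2294 and 2120 in Prm2-/-. Among the remaining libraries, replicate 3 of Prm2+/- stood above the others for Hspb9. Without replicate 3 of Prm2+/+ the log2 fold changes between Prm2-/- and Prm2+/+ were -0.07 and 0.04. Dnajb3, another testis DNAJ, spanned 6534 to 8261, and its gene lies within the Ugt1a cluster and overlaps 9 annotated genes, so that its count is uncertain. In that same library the spermatid markers differed in both directions, with Spaca1 at 285 (at least 862 elsewhere), Odf1 at 7951 (at most 6188 elsewhere) and the summed round spermatid list at 3497, inside the range of the others. Their part in these values was not tested.

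Other members with roles in germ cells, and the cytosolic DNAJA genes, were compared in the same way. Hspa4l, an HSP110 needed for sperm function, had 4199, 4192 and 4760 normalized counts in Prm2+/+, 4343, 4212 and 3898 in Prm2+/-, and 4162, 4263 and 3883 in Prm2-/- (log2 fold change -0.09, 95% interval -0.27 to 0.08). Dnajb13, a radial spoke protein, ranged from 466 to 733 and Dnajc5b, a palmitoylated DNAJ related to the synaptic cysteine string protein, from 1144 to 1852. Dnajc5g, its testis relative, ranged from 436 to 735, Dnajc15, of the mitochondrial inner membrane, from 1107 to 1380, and Dnajc2, which sits on ribosomes, from 1755 to 2285. Dnaja2 ranged from 678 to 837 and Dnaja4 from 1103 to 1483, both cytosolic partners of HSP70. Prm2-/- and Prm2+/+ overlapped for each of these genes except Dnajc15, whose Prm2-/- libraries (1107 to 1166) lay just below those of Prm2+/+ (1176 to 1380). Hspbp1, an exchange factor that binds HSP70, had 160, 145 and 151 in Prm2+/+ and 143, 143 and 85.5 in Prm2-/-. Hspbap1, named for its association with the small HSP HSPB1, ranged from 5.28 to 41.8. Hspb11, a small HSP relative in the intraflagellar transport complex, was low in replicate 3 of Prm2+/+ with 38.7, and between 132 and 181 elsewhere.

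**Figure D3:**
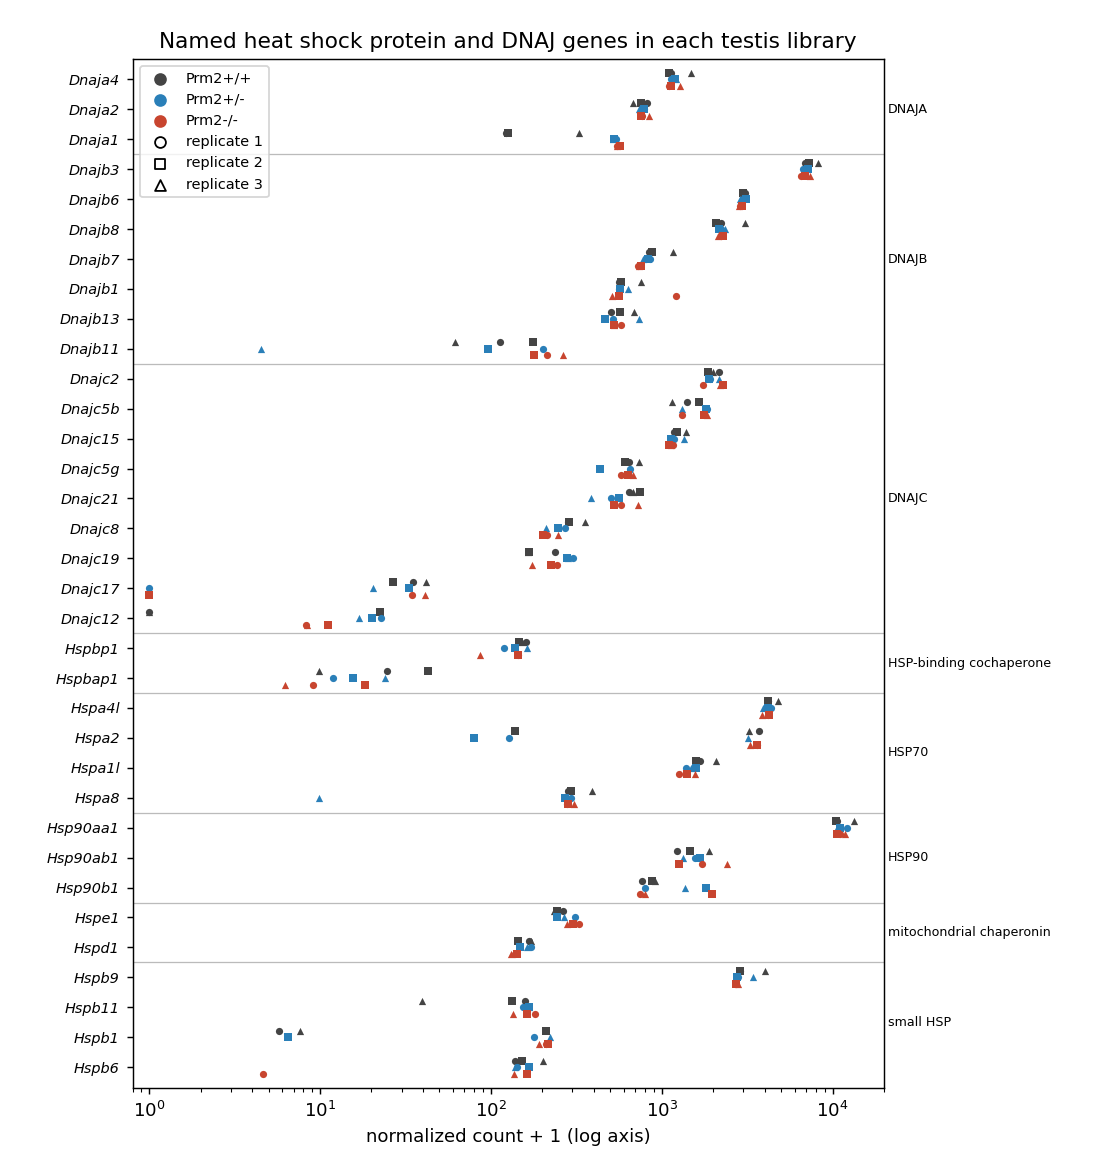
Normalized count + 1 (log axis) of the 34 named members in each of the 9 libraries, 1 gene per row by family, with colour for genotype and shape for replicate. Dnaja1 has its Prm2+/+ points apart from the others, and Hspa2, Hspb1, Hspa8, Hspb6 and Dnajb11 have 1 or 3 libraries far below the rest.

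Summed over the family, the HSP70 genes ranged from 8975 to 13216, a ratio of 1.47, and from 8312 to 9593, a ratio of 1.15, once Hspa2 was left out. The DNAJA sum was 2122 to 2613 in Prm2+/+, 2576 to 2645 in Prm2+/- and 2550 to 2782 in Prm2-/-. All 71 members summed to 59160 ± 5423 (SD, n = 3) in Prm2+/+, 56731 ± 1035 in Prm2+/- and 58979 ± 858 in Prm2-/-. Replicate 3 of Prm2+/+ was the highest, with 65063. That library was the highest for 18 members (26.5%, beside 23.9% of all genes) and the lowest for 15 (22.1%, beside 25.7%).

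**Figure D4:**
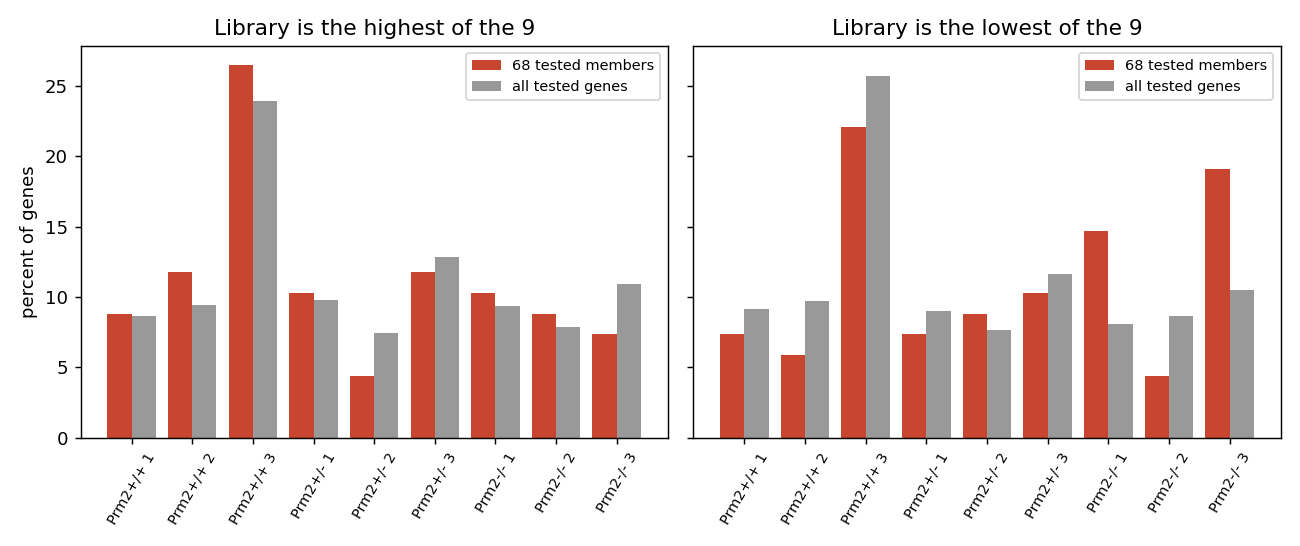
Percent of the 68 tested members (red) and of all tested genes (grey) for which each library had the highest (left) or the lowest (right) normalized count of the 9. Replicate 3 of Prm2+/+ is the tallest bar for members and for all genes in both panels.

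Around the family, 63 genes of heat shock factors, HSP70 exchange factors, HSP90 cochaperones, the TRiC chaperonin, prefoldin and AAA disaggregases were listed, and 58 were tested. Of these, 1 was called higher in Prm2-/- against Prm2+/+ and 1 against Prm2+/-, none lower in either and 0 of 58 between Prm2+/- and Prm2+/+, where limma gave 0 at an unadjusted p under 0.05 and edgeR and DESeq2 called none (0). None (0) of the 6 tested heat shock factor genes, 11 exchange factors, 9 TRiC genes, 7 prefoldin genes and 5 disaggregases was called, with 2, 0, 1, 0 and 1 at an unadjusted p under 0.05 for Prm2-/- against Prm2+/+ in limma. In total, 5 of the 58 passed that unadjusted threshold, beside 7.33% of all tested genes. Of all tested genes, limma called 0.181% for Prm2-/- against Prm2+/+ and 0.175% against Prm2+/-. The called gene in both comparisons was Fkbp8, an FK506-binding protein of the outer mitochondrial membrane that binds HSP90. The gene lies on chr8:70527724-70535328 on the plus strand. It had 22.8, 24.7 and 13.3 normalized counts in Prm2+/+, 21.8, 8.22 and 18.6 in Prm2+/-, and 205, 195 and 156 in Prm2-/-. All Prm2-/- libraries were far above the other 6. The log2 fold change was 3.17 against Prm2+/+ (SE 0.37, adjusted p = 0.0207 in limma) and 3.53 against Prm2+/- (SE 0.37, adjusted p = 0.0129 in limma). The adjusted p against Prm2+/+ rose to between 0.0519 and 0.0978 without any 1 of the Prm2-/- libraries, and that against Prm2+/- to 0.0578 and 0.0602 without replicate 1 or 2. Of the 13 tested genes within 150 kb of Fkbp8, none (0) was lower in all Prm2-/- libraries than in the other 6. Among them Kxd1 overlaps Fkbp8 and had far more counts, 2206 to 3523 in Prm2-/- and 2018 to 2862 in the other 6. Counts that large could hide a shift of the size of the Fkbp8 difference, and the part of this overlap was not tested. Higher in all Prm2-/- libraries were Isyna1, narrowly, at 66.97 to 1434 against 26.5 to 66.52 in the other 6, and Comp, at 152 to 176 against 82.5 to 150. Ssbp4 came close to separating the other way, at 0 to 28.1 in Prm2-/- against 26.5 to 60.8 in the other 6. Against Prm2+/+ alone, 6.92% of all tested genes were higher in all Prm2-/- libraries, and against Prm2+/- alone 7.47%. The share of all genes that separate from all 6 was not computed.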

How the data were processed

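QuantSeq libraries from testes of 3 males per Prm2 genotype were analysed. Per the submitters' processing notes, reads were trimmed with Trim Galore 0.4.5, mapped to GRCm38 with HISAT2 2.1 and quantified with StringTie 1.3.3, and the deposited values are a signal, namely gene counts that the authors divided by 1 DESeq2 size factor per library. All values (100%) could be divided by the step of their library without remainder (tolerance 0.001), so whole counts could be recovered, called reads here. This is a weaker sign in replicate 1 of Prm2+/-, whose step was 0.989. The study made its gene counts from the output of StringTie, so the recovered counts need not equal numbers of sequenced reads. A count of 0 allows up to 3 reads, and limits of this kind cover counting error only. The type of strand counting is not given in the sources used here. There were 0 columns without a sample.

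Genes were kept by filterByExpr on recovered reads, which left 14893 of 38685. Limma 3.58.1 (lmFit, eBayes with trend) was fitted to log2 of the deposited value plus 1, with all 9 libraries in 1 model of genotype. A gene was called at p under 0.05 after Benjamini-Hochberg adjustment over all genes together with a log2 fold change beyond 0.5. Such fold changes understate the change of low genes. Alternatives were TMM scaling, pseudocounts of 0.5 and 5, a minimum of 10 reads in every library, any read, only the 6 libraries compared, a replicate block, edgeR 4.0.16 and DESeq2 1.42.0 on recovered reads, and each library left out. R 4.3.3, Python 3.11.15, pandas 2.3.3, numpy 2.4.6 and matplotlib 3.10.9 were used. The fits were tested on simulated data. These had the same spread setting for all genes and no genes with 2 levels within a genotype, so the test did not cover such genes.

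Positions came from GENCODE M21 (GRCm38), which matched all 71 members. Of these, 29 overlap another gene. The rows of 68 members are loci assembled by StringTie that carry the name of the gene, so their counts may cover other bounds than these positions. Words of 50 bases were counted in the last 300 bases of its transcripts. The members and lists were chosen with earlier results of these data known. Named members were any that were called, those with 2 levels, the 3 highest of each family, those with testis roles and the 2 largest rises and falls per comparison (34), together with called partner genes. All others were named after their values were seen.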

Additional observations from a re-analysis of the deposited data

How the results depend on the processing

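Under 18 alternatives per comparison, members called lower stayed at 0 in each comparison, and members called higher stayed at 0 between Prm2-/- and Prm2+/-. Members called higher became 1 under DESeq2 in both comparisons with Prm2+/+ (Dnaja1), and ranged from 0 to 1 with each library left out, being 1 without replicate 3 (Dnaja1) or replicate 2 (Dnajc12) of Prm2+/+. The fold changes of Dnaja1 and Dnajc12 kept their sign throughout. Partner genes called for Prm2-/-, 1 in each comparison, became 0 with at least 10 reads in every library, where Fkbp8 was not tested, and ranged from 0 to 1 with each library left out. The replicate numbers did not pair the libraries, since the correlation of deviations was between -0.037 and 0.042 for equal and between -0.038 and 0.046 for unequal numbers. With the replicate block, calls over all genes were 15, 6 and 14 in place of 27, 12 and 26, members called stayed at 0, and partner genes called became 0, the adjusted p of Fkbp8 in limma being 0.107 and 0.0757. The fold change of Fkbp8 was 2.90 to 3.33 and 3.13 to 3.78 with each library left out. Members with 2 levels numbered 9 at a gap of at least 1, 5 at a gap of at least 3, and 3 to 6 with each library left out, with 3 without replicate 3 of Prm2+/-. Direction turned for Dnajc17 between Prm2-/- and Prm2+/+ (-2.53 to 0.15 with each library left out, the latter without replicate 2 of Prm2-/-) and for Hspb6 between Prm2-/- and Prm2+/- (-2.56 to 0.0136, the latter without replicate 1 of Prm2-/-). With 3 libraries per genotype, intervals of the median member reached 0.418 on the log2 scale.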
